A study of Mus musculus with 2 samples.

Results

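The 10 genes described here carry out antigen presentation in intestinal epithelium. They are the class I heavy chain genes *H2-K1*, *H2-D1*, *H2-T3* and *H2-T23*, the light chain gene *B2m*, the peptide transport and loading genes *Tap1* and *Tapbp*, the immunoproteasome genes *Psmb8* and *Psmb9*, and the class II invariant chain gene *Cd74*. They were taken by name, as 10 of the 16665 genes listed in at least 1 of 2 single-cell count tables. The control table lists all 10, and the other lists 9, since *Cd74* has no entry there.

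Class I molecules display peptides from inside the cell on its surface. The proteasome cuts the peptides, the TAP transporter moves them into the endoplasmic reticulum, tapasin helps to load them, and a heavy chain paired with beta-2-microglobulin carries them out. Class II molecules display peptides from endocytosed material with the help of the invariant chain, and intestinal epithelium is known for making class II under interferon gamma and for nonclassical class I molecules that lymphocytes of the gut recognise.

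Enteroids, which are epithelial cultures grown from ileal crypts, came from mice 4 months old of the strain labelled C57Bl6/129sv. The library titled KO with 4-OHT is called the library labelled *Taf4*IEC here, after the study's name for this genotype. It came from *Taf4*lox/lox::VilCreERT2 enteroids given 1 µM 4-OHT for 3 days. A Cre driven by the epithelial Villin promoter could thus delete *Taf4*, which encodes a TFIID subunit. The control is labelled WT with ethanol, whereas the methods of the study give it as *Taf4*lox/lox enteroids that also received 4-OHT. Each condition is 1 library of live-sorted cells, and the number of mice behind each is not given in the sources used here.

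The control library held 39947009 UMIs (unique molecular identifiers, each standing for 1 captured transcript) in 2563 cells, and the library labelled *Taf4*IEC held 24990128 in 1811 cells. Median depth was 16749 and 2254 UMIs per cell, cells under 2000 UMIs made up 17.3% and 49.1%, and 2 cell barcodes occurred in both. *Taf4* itself was at 0.0696 UMIs per 10000 in the control and 0.0944 in the library labelled *Taf4*IEC, with 278 and 236 UMIs, so that these 3′ counts do not show a loss of the transcript. Immune cell markers were at or near 0: of 13 listed markers, 9 were at 0 or not listed in the control and 8 in the other library. *Ptprc*, *Cd3g*, *Cd8a*, *Ms4a1*, *Tyrobp*, *Itgax* and *Flt3* are listed in neither table, and the whole list summed to 0.00976 and 0.0312 UMIs per 10000, with *Lyz2* at 18 and 60 UMIs. Of 8 stromal and endothelial markers 5 and 6 were at 0 or not listed. All intervals are 95% intervals, exact Poisson for levels, exact conditional binomial for ratios and Clopper-Pearson for shares of cells. They cover counting error only, and with 1 library per condition no test between conditions was possible.

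The promoters of 9 genes, all but *Cd74*, were matched by symbol in RefSeq sequence of build GRCm38.p6, the build of the counts. The windows shown are the 250 bases before the annotated start, 5′ to 3′ on the strand of the gene. For *H2-K1* the RefSeq table holds 2 windows, and the one shown belongs to the start that lies further inside the gene model, which runs to position 34000619. The windows are given for the pair of classical heavy chains and for the members that differed by at least 2-fold over all cells: *H2-K1* (chr17:34000334-34000583, minus strand) and *H2-D1* (chr17:35262844-35263093, plus strand), whose levels over all cells stayed within 2-fold, *H2-T3* (chr17:36190152-36190401, minus strand), which was far lower in the library labelled *Taf4*IEC, *H2-T23* (chr17:36032702-36032951, minus strand), which was higher, and *Tap1* (chr17:34187306-34187555, plus strand), whose window is shared with *Psmb9*. Capitals mark matches on either strand to GGGATTCCC (from the kappa B element of class I genes), TTTCACTT (the core of the class I interferon consensus sequence), GAAANNGAA (from the interferon-stimulated response element), TTCNNNGAA (a GAS element), TGACGTCA (a CRE) and TATAAA. None of these matches overlap in the windows shown.
H2-K1: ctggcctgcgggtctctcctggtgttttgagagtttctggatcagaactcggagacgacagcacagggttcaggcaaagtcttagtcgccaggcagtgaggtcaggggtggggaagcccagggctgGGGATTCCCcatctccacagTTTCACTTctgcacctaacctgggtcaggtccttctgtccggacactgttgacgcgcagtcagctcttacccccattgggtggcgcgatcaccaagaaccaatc
H2-D1: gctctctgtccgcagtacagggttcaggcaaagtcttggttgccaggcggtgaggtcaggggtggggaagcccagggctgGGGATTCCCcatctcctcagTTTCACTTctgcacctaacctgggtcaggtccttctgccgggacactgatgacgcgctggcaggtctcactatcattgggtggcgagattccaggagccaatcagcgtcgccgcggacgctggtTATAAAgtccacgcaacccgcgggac
H2-T3: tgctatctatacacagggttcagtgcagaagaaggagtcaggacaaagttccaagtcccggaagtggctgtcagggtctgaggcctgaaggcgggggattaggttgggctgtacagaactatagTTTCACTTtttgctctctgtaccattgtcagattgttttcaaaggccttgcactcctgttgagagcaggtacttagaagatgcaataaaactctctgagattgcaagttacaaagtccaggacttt
H2-T23: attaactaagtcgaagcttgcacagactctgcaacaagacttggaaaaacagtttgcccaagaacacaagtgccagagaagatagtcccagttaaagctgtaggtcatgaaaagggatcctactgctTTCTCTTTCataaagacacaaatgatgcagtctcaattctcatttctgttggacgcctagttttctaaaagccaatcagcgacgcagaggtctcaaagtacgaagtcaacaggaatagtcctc
Tap1: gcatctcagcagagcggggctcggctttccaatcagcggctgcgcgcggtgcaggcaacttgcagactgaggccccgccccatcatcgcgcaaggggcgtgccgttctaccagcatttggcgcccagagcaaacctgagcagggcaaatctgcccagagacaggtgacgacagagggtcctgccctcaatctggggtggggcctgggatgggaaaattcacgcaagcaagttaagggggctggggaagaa

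*H2-K1* and *H2-D1* both held GGGATTCCC, which occurs in 0.311% of 27025 promoter windows of this length. TTTCACTT was in the windows of *H2-K1*, *H2-D1* and *H2-T3* and occurs in 1.44% of all windows. GAAANNGAA occurs in 7.16% of all and was in those of *H2-T23*, from 123 to 115 bases before the start, and of *B2m*, from 139 to 131 bases before it. TATAAA occurs in 13.0% of all windows and was in that of *H2-D1*, 26 to 21 bases before the start, and further upstream in those of *B2m* and *Psmb8*. TGACGTCA, in 1.62% of windows, was in none of the 9, and TTCNNNGAA, in 7.18%, was in that of *Psmb8* alone. The annotated starts of *Tap1* and *Psmb9* are 226 bases apart on opposite strands, so that the *Tap1* window printed above runs through the start of *Psmb9*. A match describes letters in the reference genome and not the alleles of these mice.

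Over all cells *H2-K1*, *H2-D1* and *B2m* differed by less than 2-fold between libraries, whereas the nonclassical chains went in opposite directions. *H2-T3* was 15.2-fold lower in the library labelled *Taf4*IEC. *H2-T23* was 3.65-fold higher and *Tap1* was 2.52-fold higher. Of the 8 that reached 200 UMIs over the pair of libraries, 2 were at least 2-fold higher and 1 at least 2-fold lower, beside 5.52% and 3.48% of the 10002 genes that did so. The median log2 ratio of the 8 was 0.25, and that of all 10002 genes was 0.16. Once the totals left out ribosomal protein and mitochondrial genes together with *Gm42418* and *AY036118*, the median of all genes became -0.02, a shift of more than 0.1. With these totals 375 of 9899 genes were at least 2-fold higher and 458 lower, in place of 552 and 348.

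*H2-K1*, a classical class I heavy chain, was at 3.34 UMIs per 10000 in the control and 3.79 in the library labelled *Taf4*IEC, a log2 ratio of 0.18 (0.14 to 0.22). The sign of this ratio changed with the reduced totals, 1 of 5 alternatives. *B2m*, the light chain that all class I heavy chains need, was at 3.12 and 3.87, a log2 ratio of 0.31 (0.27 to 0.35). For *H2-D1*, the other classical heavy chain, the levels were 2.03 and 1.57, and the log2 ratio was -0.37 (-0.43 to -0.32). The ratio of *H2-D1* was below the median of all genes, and those of *H2-K1* and *B2m* were above it.

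*H2-T3* encodes the thymus leukemia antigen, a nonclassical class I molecule of intestinal epithelium that binds CD8 alpha homodimers. It had 1949 UMIs in 820 control cells and 80 UMIs in 65 cells of the library labelled *Taf4*IEC. Its level was 0.488 (0.466 to 0.510) UMIs per 10000 against 0.0320 (0.0254 to 0.0398), for a log2 ratio of -3.93 (-4.27 to -3.61). Under 5 other ways of weighting, scaling or choosing cells this ratio lay between -4.38 and -3.86. No control cell held more than 15 of these UMIs, and the 1% of control cells with the most held 13.3% of them.

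*H2-T23* encodes Qa-1, a nonclassical class I molecule that presents leader peptides of other class I chains to natural killer receptors. It had 251 UMIs in the control and 573 in the library labelled *Taf4*IEC, from a smaller total. The levels were 0.0628 (0.0553 to 0.0711) and 0.229 (0.211 to 0.249) UMIs per 10000. This made a log2 ratio of 1.87 (1.65 to 2.09), which lay between 1.68 and 1.88 under the same 5 alternatives. Both nonclassical chains thus lay outside 2-fold in every one of these settings, in opposite directions.

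*Tap1*, a subunit of the peptide transporter, was at 0.0428 and 0.108 UMIs per 10000, a log2 ratio of 1.34 (1.05 to 1.62). Its partner subunit *Tap2* was at a log2 ratio of 0.10 (-0.33 to 0.52). *Tapbp*, which encodes tapasin, was at 0.119 and 0.186, a log2 ratio of 0.64 (0.46 to 0.83). Of the transporter and loading genes, *Tap1* alone passed 2-fold.

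*Psmb9*, an immunoproteasome subunit whose start lies beside that of *Tap1*, was at 0.0476 and 0.0284 UMIs per 10000, a log2 ratio of -0.74 (-1.16 to -0.34). The intervals of *Tap1* and *Psmb9* did not overlap and lay on opposite sides of 0. *Psmb8*, another subunit, had only 64 and 19 UMIs, fewer than the 200 required, and its log2 ratio was -1.08 (-1.90 to -0.32). The third immunoproteasome subunit *Psmb10* was at -0.40 (-0.53 to -0.27), and the constitutive subunits *Psmb5*, *Psmb6* and *Psmb7* lay between -0.14 and 0.04.

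*Cd74* had 14 UMIs in the control and none in the library labelled *Taf4*IEC. Set against a floor of 3 counts over that library, its level was 2.92-fold lower. The counting interval of its log2 ratio reached up to -1.05. The 14 UMIs stood in 4 cells, 1 of which held 10, and 12 of them lay in 2 cells of an unnamed cluster of 318 cells. The class II chain *H2-Ab1* went the other way, with 1 UMI in the control and 51 UMIs in 30 cells of the library labelled *Taf4*IEC, a log2 ratio of 6.35 (3.81 to 11.68). *H2-Eb1* had 1 and 8 UMIs, and *H2-Aa*, the partner chain of *H2-Ab1*, and the class II regulator *Ciita* are listed in neither table.

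**Figure D1:**
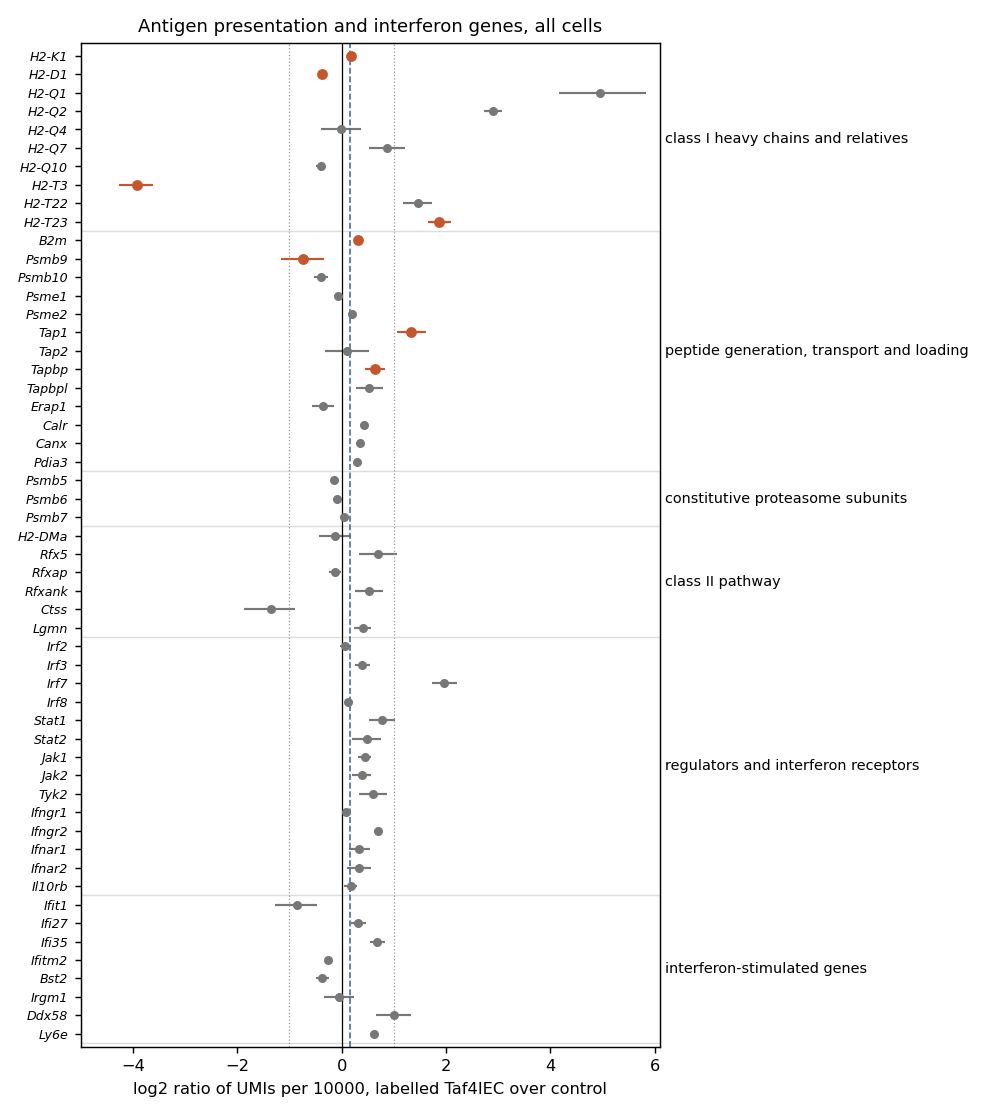
Log2 ratio of UMIs per 10000, library labelled Taf4IEC over control, for each gene of 6 lists that reached 200 UMIs over the pair of libraries. Orange points are genes of the 10, grey points other genes, bars 95% counting intervals, dotted lines 2-fold and the dashed line the median of all genes (0.16); *H2-T3* lies alone at -3.93 on the left, and *H2-Q1*, *H2-Q2*, *Irf7*, *H2-T23*, *H2-T22* and *Tap1* lie beyond 2-fold on the right.

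Cells were put into classes by clusters that rested on no antigen presentation gene. Each library was clustered alone, and a cluster took the name of a class from at least 3 of its markers. Stem-like cells numbered 1049 in the control and 443 in the library labelled *Taf4*IEC, enterocyte-like cells 225 and 168, Paneth/goblet-like cells 190 and 183, and enteroendocrine-like cells 260 and 190. A further 748 and 812 cells stayed unnamed. The tuft-like clusters of 91 and 15 cells were not compared, since *Rgs13* and *Ltc4s* led the control one beside *Dll1*, *Sox4* and *Insm1*, which are no tuft markers of the list. The clusters of a class differ between libraries in depth: 2 clusters made up the Paneth/goblet-like class of the library labelled *Taf4*IEC, with medians of 961 and 32390 UMIs per cell, against 1 in the control with 16396. They also differ in markers of other classes. Paneth/goblet markers summed to 10.6 UMIs per 10000 in control stem-like cells and 28.2 in those of the other library, beside stem markers at 22.4 and 20.9. In enteroendocrine-like cells Paneth/goblet markers were at 38.0 and 165, and in enterocyte-like cells at 5.46 and 6.04.

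**Figure D2:**
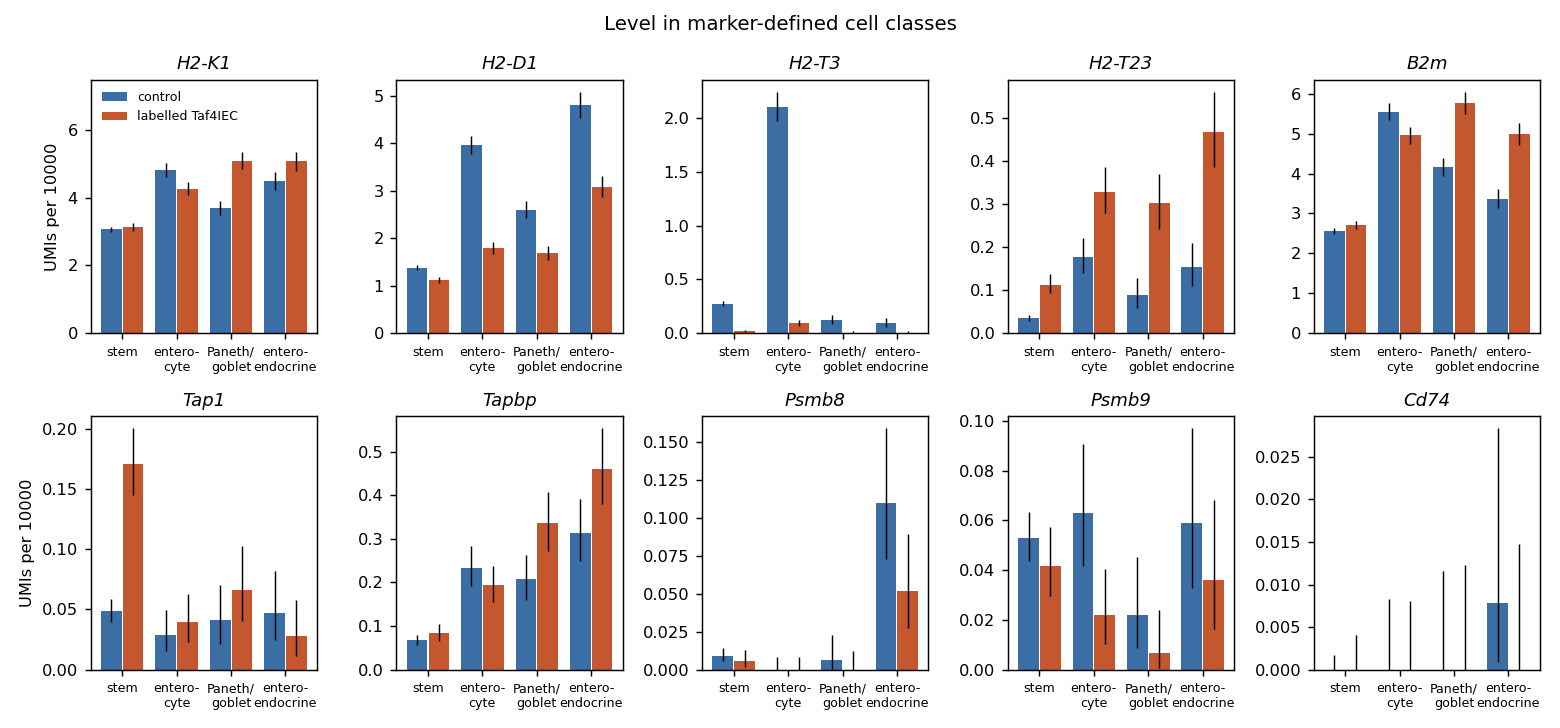
Level of each of the 10 genes in UMIs per 10000 in 4 marker-defined cell classes, control in blue and library labelled Taf4IEC in orange, with exact Poisson 95% intervals. Each panel has its own axis from 0; *H2-T3* stands at 2.11 in control enterocyte-like cells and at 0.0900 in those of the other library, whereas *H2-T23* is higher in that library in all 4 classes and *Tap1* reaches 0.171 in its stem-like cells.

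*H2-T3* was highest in enterocyte-like cells, and it was lower in every class of the library labelled *Taf4*IEC. In the control it was at 2.11 UMIs per 10000 in enterocyte-like cells, 0.273 in stem-like, 0.123 in Paneth/goblet-like and 0.0941 in enteroendocrine-like cells. The Paneth/goblet-like and enteroendocrine-like intervals overlapped (0.0872 to 0.168 and 0.0603 to 0.140), and the others did not. The level of enterocyte-like cells was 7.73-fold (6.97 to 8.58) that of stem-like cells. The summed enterocyte markers stood further apart, at 189 and 5.20 UMIs per 10000 in these classes, and they were higher in enteroendocrine-like (26.04) than in stem-like cells, the reverse of *H2-T3*.

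In the library labelled *Taf4*IEC the levels of *H2-T3* were 0.0900 in enterocyte-like and 0.0175 in stem-like cells, from 41 and 16 UMIs. The log2 ratios between libraries were -4.55 (-5.04 to -4.10) in enterocyte-like and -3.96 (-4.77 to -3.25) in stem-like cells. The stem-like ratio was further from 0 without regression (-5.34), with both libraries clustered together (-5.10) and with markers counted from 2 times the mean level (-5.10). Paneth/goblet-like cells had 39 UMIs in the control and 1 in the other library, and enteroendocrine-like cells 24 and 1, for log2 ratios of -5.21 (-10.55 to -2.64) and -4.55 (-9.92 to -1.94). In unnamed cells the level was 0.528 and 0.0376. Enterocyte-like cells of the library labelled *Taf4*IEC held 5.13-fold (2.82 to 9.79) the level of its stem-like cells, a log2 ratio of 2.36 that became 1.27 with each cell weighted equally. The interval of this fold and that of the control overlap.

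*H2-T23* was higher in the library labelled *Taf4*IEC in each class. Enteroendocrine-like cells were at 0.153 and 0.468 UMIs per 10000, a log2 ratio of 1.62 (1.08 to 2.18). Paneth/goblet-like cells were at 0.0880 and 0.302, stem-like cells at 0.0342 and 0.113, and enterocyte-like cells at 0.177 and 0.329. The log2 ratios were 1.78, 1.72 and 0.89 in this order, and the last, with an interval of 0.49 to 1.30, was the only one of the 4 under 2-fold, at 0.51 to 1.10 under the 9 alternatives for classes. Within the control, *H2-T23* was 5.19-fold (3.74 to 7.22) higher in enterocyte-like than in stem-like cells.

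The classical chains differed by class as well as by library. *H2-D1* was at 3.96 UMIs per 10000 in control enterocyte-like cells and at 1.79 in those of the library labelled *Taf4*IEC, a log2 ratio of -1.15 (-1.27 to -1.03), and between -1.39 and -0.99 under the 9 alternatives for classes. The ratio was -0.64 (-0.77 to -0.51) in enteroendocrine-like, -0.62 (-0.79 to -0.46) in Paneth/goblet-like and -0.30 (-0.41 to -0.20) in stem-like cells. *H2-D1* was the one classical chain with a 2-fold difference in any class, and it was below 0 in all 4.

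*H2-K1* was at 3.08 and 3.15 UMIs per 10000 in stem-like cells, at 4.82 and 4.28 in enterocyte-like, at 3.70 and 5.10 in Paneth/goblet-like and at 4.50 and 5.09 in enteroendocrine-like cells. *B2m* was at 2.56 and 2.71, 5.55 and 4.96, 4.16 and 5.77, and 3.37 and 4.99 in the same order. In the library labelled *Taf4*IEC both were slightly lower in enterocyte-like and higher in Paneth/goblet-like cells, with log2 ratios from -0.17 to 0.57 over the 4 classes. Under the 9 alternatives of clustering, naming, depth or total these signs held in both classes, and the ratios of the pair over the 4 classes ran from -0.41 to 0.67. In the control, *B2m* was highest in enterocyte-like cells and *H2-D1* in enteroendocrine-like cells. Stem-like cells had the lowest level of *H2-K1*, *H2-D1*, *B2m*, *H2-T23* and *Tapbp* among the 4 classes in both libraries.

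*Tap1* had another pattern. It was at 0.0488 UMIs per 10000 in control stem-like cells and at 0.171 in those of the library labelled *Taf4*IEC, a log2 ratio of 1.81 (1.45 to 2.18), from 107 and 156 UMIs. Different clusters make up this class in each library. In the control most of its cells were in clusters of 305, 250 and 247 cells led by *Hist1h1b*, *Cenpf* and *Mcm4*, genes of dividing cells, where *Tap1* was at 0.0685, 0.0440 and 0.0332. Of the 156 UMIs of the other library, 119 came from 1 cluster of 178 cells led by *Ccnd1*, *Olfm4* and *Lgr5*, at 0.197, while the clusters led by *Cdc20* (218 cells) and *Pclaf* (33 cells) were at 0.114 and 0.126. The control cluster led by *Olfm4* was at 0.0326. The levels of enterocyte-like cells were 0.0292 and 0.0395, from 13 and 18 UMIs. The other classes held 12 and 7 UMIs (enteroendocrine-like) and 13 and 20 UMIs (Paneth/goblet-like), with intervals of the ratio that include 0. Unnamed cells were at 0.0373 and 0.123. In the library labelled *Taf4*IEC, *Tap1* was lower in enterocyte-like than in stem-like cells, with a log2 ratio of -2.11 (-2.91 to -1.41), opposite to the classical chains. Among clusters of at least 30 cells its level was highest in the stem-like cluster led by *Ccnd1*, at 0.197 (0.163 to 0.236). Unnamed clusters of 113 and 495 cells were close to it, at 0.195 (0.0634 to 0.455) and 0.178 (0.0652 to 0.387), from 5 and 6 UMIs. These intervals overlap.

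*Tapbp* was at 0.0675, 0.234 and 0.314 UMIs per 10000 in stem-like, enterocyte-like and enteroendocrine-like cells of the control. In the library labelled *Taf4*IEC the levels were 0.0833, 0.193 and 0.460. The stem-like log2 ratio, 0.30, lay between 0.19 and 0.91 under the 9 alternatives. The 2 levels of Paneth/goblet-like cells, 0.207 and 0.335, had a log2 ratio of 0.69 (0.23 to 1.16). *Psmb8* was highest in enteroendocrine-like cells, which held 28 of its 64 control UMIs and 13 of its 19 in the other library, while enterocyte-like cells held none in either. Its highest levels were in the clusters led by *Tac1*, *Chgb*, *Chga* and *Tph1*, with 10 UMIs in 51 control cells and 8 UMIs in 29 cells of the library labelled *Taf4*IEC. *Psmb9* was at 0.0529 and 0.0417 in stem-like and at 0.0629 and 0.0219 in enterocyte-like cells. Its stem-like log2 ratio, -0.34 (-0.91 to 0.20), ran from -1.10 to 0.62 under the 9 alternatives, with the sign changed in 1.

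Counted by class, 2 of the 8 members with at least 50 UMIs in stem-like cells were at least 2-fold higher (*H2-T23* and *Tap1*) and 1 was lower (*H2-T3*), beside 5.81% and 3.87% of all genes with this number of UMIs. Enterocyte-like cells had 0 of 6 higher and 2 lower (*H2-D1* and *H2-T3*), beside 2.74% and 2.37%. Paneth/goblet-like cells had 1 of 5 higher (*H2-T23*) and 0 lower, beside 2.69% and 2.3%, and enteroendocrine-like cells had the same count, beside 5.72% and 1.63%. Between classes, 5 of 8 members were at least 2-fold higher in enterocyte-like than in stem-like cells of the control and 0 were lower, beside 12.7% and 32.2% of all genes. In the library labelled *Taf4*IEC, 3 of 7 were higher and 1, *Tap1*, was lower, beside 10.6% and 33.9%. The median log2 ratio of the members in this comparison was 1.32 and 0.87, and that of all genes -0.43 and -0.56.

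**Figure D3:**
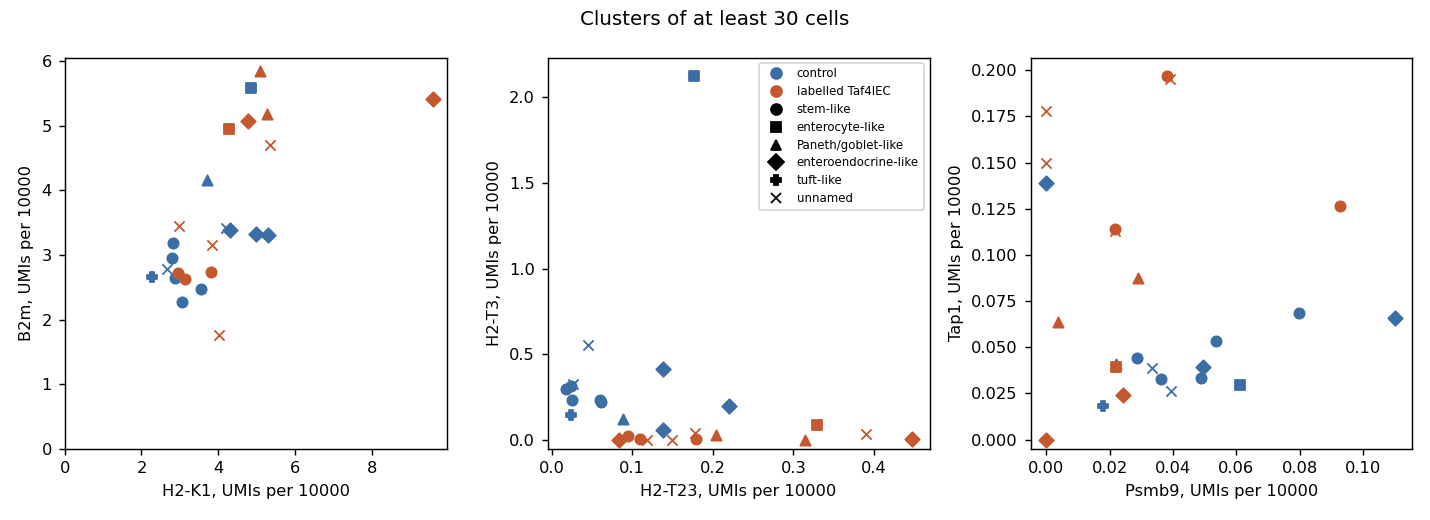
Levels in UMIs per 10000 of 3 pairs of genes, 1 point for each cluster of at least 30 cells (13 control clusters in blue, 12 of the library labelled Taf4IEC in orange), with the shape giving the class. *B2m* and *H2-K1* lie in a common band. Control clusters reach higher *H2-T3* and the other clusters higher *H2-T23*, though for each gene the ranges of both libraries overlap. *Tap1* and *Psmb9* show no common order.

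Across the 13 control clusters and the 12 clusters of the library labelled *Taf4*IEC, the log2 levels of *H2-K1* and *H2-D1* had a Pearson correlation of 0.82 and 0.87, and those of *H2-K1* and *B2m* of 0.61 and 0.65. For *Tap1* and *Psmb9*, the neighbours with a common start region, it was -0.12 and 0.28. Clusters share a library and differ in depth, so these values only describe the points. *H2-T3* ranged from 0.0593 to 2.12 UMIs per 10000 over the control clusters and from 0 to 0.0900 over the others, so that 1 control cluster, an enteroendocrine-like one, lay below the highest of the other library. *H2-T23* ranged from 0.0176 to 0.220 and from 0.0833 to 0.448.

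Outside the lists, the 5 genes whose log2 level was most like the summed *H2-K1*, *H2-D1* and *B2m* over these 25 clusters were *Tm4sf4* (Pearson r 0.86), *Cdhr5* (0.86), *Sel1l* (0.86), *Trp53inp2* (0.86) and *Cdhr2* (0.86). *Cdhr5* and *Cdhr2* encode cadherins of the brush border, and *Sel1l* a component of the degradation machinery of the endoplasmic reticulum. Within the control clusters alone the correlations were 0.82 to 0.96, and within those of the library labelled *Taf4*IEC 0.76 to 0.88. All points share 2 libraries, and of the genes compared 0.142% reached a correlation of 0.8.

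Shares of cells were compared after each cell had been thinned to 2000 UMIs, which left out 444 control cells and 890 cells of the library labelled *Taf4*IEC. *H2-T3* was then seen in 8.31% (7.17 to 9.56) of 2119 control cells and 0.651% (0.239 to 1.41) of 921 cells of the other library. Without thinning the shares were 31.99% and 3.59%. *H2-T23* was seen in 1.70% (1.19 to 2.34) and 5.97% (4.53 to 7.70), and in 8.78% and 18.7% without thinning. The share for *H2-K1* was 48.3% (46.2 to 50.5) and 54.3% (51.0 to 57.5) after thinning, and 84.5% and 66.4% before it, the opposite order.

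By class, 31.5% (25.3 to 38.2) of 213 control enterocyte-like cells and 5.28% (4.00 to 6.82) of 1041 stem-like cells had a UMI of *H2-T3* at 2000 UMIs. The share was 2.15% (0.589 to 5.41) of 186 Paneth/goblet-like cells and 0.952% (0.116 to 3.40) of 210 enteroendocrine-like cells. Median depth before thinning was 21357, 21121, 16396 and 9937 UMIs in these classes, in this order. The intervals of the stem-like and enteroendocrine-like shares did not overlap, whereas the Paneth/goblet-like interval overlapped both. UMIs from free RNA in the droplets were not estimated, so a share of cells with a UMI is not a share of cells expressing the gene. In the library labelled *Taf4*IEC, 2 of 128 enterocyte-like cells had a UMI. A UMI of *Tap1* was seen in 0.865% (0.396 to 1.63) of control stem-like cells and in 3.26% (1.64 to 5.77) of 337 stem-like cells of the library labelled *Taf4*IEC.

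Of the pathway lists, which hold 100 genes beside the members, 46 had at least 200 UMIs. At least 2-fold higher were 4 of them, *H2-Q1*, *H2-Q2*, *H2-T22* and *Irf7*, and 1, *Ctss*, was lower, beside 5.52% and 3.48% of all genes. The median log2 ratio of the 46 was 0.33. These lists had been chosen with earlier results of the same libraries known.

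Of 21 class I heavy chain genes 16 are listed and 10 had at least 200 UMIs, with 4 higher and 1 lower beside the same 5.52% and 3.48%, the members *H2-T23* and *H2-T3* included. *H2-Q1*, a nonclassical chain, had 14 UMIs in the control and 269 in the library labelled *Taf4*IEC, a log2 ratio of 4.94 (4.17 to 5.83). *H2-Q2* had 338 and 1577, a log2 ratio of 2.90 (2.73 to 3.07), and *H2-T22*, a ligand of gamma delta T cells, was at 1.46 (1.18 to 1.73). *H2-Q10* was at -0.40 (-0.49 to -0.32) over all cells, and its ratio differed by class. It was -1.36 (-1.54 to -1.18) in stem-like, -1.12 (-1.56 to -0.68) in enteroendocrine-like, -0.53 in enterocyte-like and 0.28 in Paneth/goblet-like cells. In enterocyte-like cells *H2-Q1* was at 0.0157 UMIs per 10000 in the control, from 7 UMIs, and at 0.432 in the other library. *H2-Q2* was at 0.393 and 2.20 in these cells and at 0.447 and 0.813 in enteroendocrine-like cells.

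Peptide generation, transport and loading held 13 genes with at least 200 UMIs, of which *Tap1* alone was higher and none lower, with a median log2 ratio of 0.29. In the class II list of 17 genes, 6 had enough UMIs and 1, *Ctss*, a protease that trims the invariant chain, was lower at 185 and 45 UMIs, a log2 ratio of -1.36 (-1.87 to -0.89). The regulators and interferon receptors had 1 higher of 14. This was *Irf7*, a transcription factor of the interferon response, with 210 and 514 UMIs and a log2 ratio of 1.97 (1.73 to 2.21). *Irf1* was at 0.31 (-0.13 to 0.74), while *Nlrc5*, the activator of class I genes, is listed in neither table. Of 37 interferon-stimulated genes 8 had enough UMIs and 0 passed 2-fold in either direction over all cells, with a median log2 ratio of 0.14. Of these 8 genes only *Ifit1* was also compared within classes. Stem-like cells had 96 and 1 of its UMIs, a log2 ratio of -5.32 (-10.64 to -2.81). Enterocyte-like cells had 42 and 15, Paneth/goblet-like cells 11 and 5, and enteroendocrine-like cells 2 and 5. Unnamed cells had 55 and 45, a log2 ratio of -0.15 (-0.75 to 0.45). *Isg15*, an interferon-stimulated ubiquitin-like protein, had 37 and 20 UMIs.

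Of the 10 genes, 8 lie on chromosome 17, in the major histocompatibility complex, between positions 33919478 (*Tapbp*) and 36190151 (*H2-T3*) of GRCm38. *B2m* is on chromosome 2 and *Cd74* on chromosome 18. In this stretch of 2.27 Mb, 75 genes had at least 200 UMIs. Among them 9 were at least 2-fold higher and 7 lower, 21.3% in all, beside 10.95% of 420 genes on the rest of chromosome 17 and 8.96% of the 9735 genes with a RefSeq position. Without the genes of the pathway lists, 10 of 60 (16.7%) differed by at least 2-fold. The difference between these shares was not tested.

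*BC023719*, named after its values were seen, lies 74.2 kb from *H2-T3*. It had 712 UMIs in the control and no entry in the library labelled *Taf4*IEC, 148-fold lower when set against a floor of 3 counts. *H2-T23* and *H2-T22*, which were higher, lie 155.6 kb and 148.4 kb from *H2-T3*. The strain label of both libraries joins 2 mouse strains. Which histocompatibility alleles each culture carried is not given in the sources used here, so with 1 library per condition an allele of these linked genes and the state of *Taf4* cannot be told apart. Class I chains also share long stretches of near-identical sequence, which makes the split of reads among *H2-K1*, *H2-D1* and the *H2-Q* and *H2-T* genes uncertain.

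**Figure D4:**
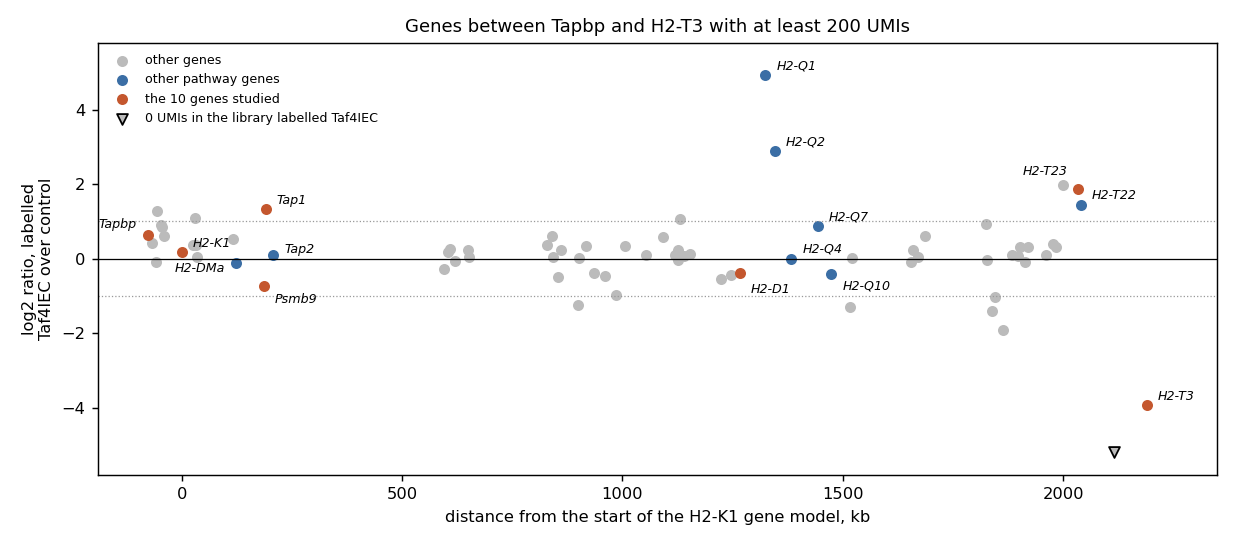
Log2 ratio, library labelled Taf4IEC over control, of the 75 genes with at least 200 UMIs between *Tapbp* and *H2-T3*, by distance in kb from the lower-numbered end of the *H2-K1* gene model. Orange marks genes of the 10, blue other pathway genes and grey the rest, dotted lines mark 2-fold, and the triangle is *BC023719* with 0 UMIs in the library labelled Taf4IEC; values beyond 2-fold in both directions stand side by side at the *H2-T* end.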

How the data were processed

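Each deposited table gives, for every gene and cell, a UMI count that was not normalized. Per the study's methods and the submitters' notes, the authors demultiplexed with bcl2fastq 2.17.1.14, aligned to mm10 and counted with Cell Ranger 3.1. They removed unexpressed genes and kept cells within a range of gene counts and with few mitochondrial reads. The methods name a single range of gene counts. Cells held 272 to 4999 genes in the control and 269 to 5997 in the library labelled *Taf4*IEC. Which strand or multi-mapping rule applied is not given in the sources used here.

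UMIs were summed over cells and divided by all UMIs, per 10000. Each library was clustered alone in R 4.3.3 with Seurat 5.3.0 (2000 variable genes, 20 principal components, resolution 0.9), with 110 antigen presentation and interferon genes left out. A cluster was named from at least 3 markers with 10 UMIs and 1.5 times the mean level of both libraries, unless its leading genes were those of another class or of low-quality cells. Doublets were not called, and 1 alternative left out the deepest 5% of cells. Intervals were computed with scipy 1.17.1. They were tested on Poisson counts simulated from the model they assume, which cannot show their coverage in these data. Genes were called at a 2-fold difference with at least 200 UMIs (50 within classes).

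The members, lists, naming rule and motifs were chosen with earlier results or sequences of these data known. Genes named are the 10, the pathway genes past 2-fold, *Tap2*, *Psmb10*, *H2-Q10*, *H2-Aa*, *H2-Ab1*, *H2-Eb1*, *Ciita*, *Nlrc5*, *Irf1*, *Isg15*, *Taf4* and the 5 most similar genes, others being named after their values were seen. A further gene of this rule is not reported here. The M cell markers, a list of 5, summed to 0.0396 and 0.0716 UMIs per 10000 in the control and the other library.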

Additional observations from a re-analysis of the deposited data

Results flagged for a closer look

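Among the 10 genes, 2 had log2 ratios of opposite sign in 2 cell classes, with both counting intervals clear of 0. For *H2-K1* the ratio in Paneth/goblet-like cells exceeded that in enterocyte-like cells by 0.63, and for *B2m* the ratio in enteroendocrine-like cells exceeded that in enterocyte-like cells by 0.73. The classes come from the same pair of libraries, and the difference was not tested. How many of all genes meet this rule was not counted, so the count of 2 has no share beside it. Counting intervals are narrow for genes with as many UMIs as these.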

How the results depend on the processing

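The directions of *H2-T3*, *H2-T23* and *Tap1* over all cells, and of *H2-T3* and *H2-T23* in enterocyte-like and *Tap1* in stem-like cells, held under each alternative tried. With each cell weighted equally, 2 members were at least 2-fold lower (*Psmb9* joined), beside 1.77% of all genes with at least 200 UMIs. The median of the members was then 0.41, *H2-T3* was at -4.30 and *Tap1* at 1.92. With cells thinned to 2000 UMIs *Tap1* was at 1.87 and *Psmb9* at -0.28, and without the deepest 5% of cells *H2-T3* was at -4.38. With the reduced totals the median of the members was 0.0634. Requiring 50 UMIs left 9 members tested, with 2 lower beside 4.38% of all genes and a median of 0.18. Requiring 1000 left 4 members tested, with 0 higher beside 3.95% of all genes and a median of -0.10. *Tap1* in stem-like cells was at 1.33 both without regression and with markers counted from 2 times the mean level, which left 33 stem-like cells in the library labelled *Taf4*IEC. With each cell weighted equally, the log2 ratio of enterocyte-like over stem-like cells in the library labelled *Taf4*IEC was 1.27 for *H2-T3*, 0.86 for *H2-D1*, 1.12 for *B2m* and 0.97 for *H2-K1*, and in the control it was 0.78 for *H2-K1*. At 5000 UMIs per cell the shares were 16.1% and 1.45% for *H2-T3*, 3.77% and 10.6% for *H2-T23*, and 74.5% and 77.2% for *H2-K1*. The cause of these shifts was not tested where no construction is named. Each main value was recomputed under several alternatives. Of these 79 recomputations 24 moved beyond the counting interval (counts by over 1.5 times), and of 214 recomputations of further values for single genes 48 did.

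No paired analysis was possible because each condition has 1 library and no comparison came from a test. Depth limits *Psmb8* and *Cd74*, and *Tap1* and *Psmb9* within classes.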
